A study of Mus musculus with 4 samples.

Results

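The response of wild-type (WT) cortex to ischemia was described across genes as the difference between the ipsilateral and the contralateral cortex 24 h after permanent middle cerebral artery occlusion (MCAO), the blocking of the artery that supplies most of the lateral cortex. It rests on 2 of the 4 arrays of the series, 1 per side. A gene was taken as its probe set with the highest mean level among those that name 1 gene, which gave 18194 genes. Of these, 13320 lay above background on at least 1 WT array and are called detected. Among the detected genes, 322 were at least 1.5-fold higher (2.42%) and 59 at least 1.5-fold lower (0.443%) on the ipsilateral side. These 381 genes (2.86%) and 60 gene lists of pathways and cell types are described here.

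The mice were C57BL/6J, 3 months old, and the left middle cerebral artery was occluded in all of them, so the contralateral cortex of the same brains was the control and no sham-operated cortex was part of the comparison. The *P4htm*-/- mice of the study lack a transmembrane prolyl 4-hydroxylase of the endoplasmic reticulum and had the same operation, and their cortices gave the other 2 arrays. Each array held the pooled RNA of 4 mice, and the whole cortex was taken, so lesion core, surrounding tissue and spared cortex were measured as one. The question is which genes and cell type markers differ between the injured and the uninjured cortex of WT mice. Values of *P4htm*-/- cortex are given only beside those of WT, since their arrays had no part in the differences by which genes were called. They did enter the choice of the probe set and the background limit, and a few genes are named for their values in both genotypes.

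An arterial occlusion starves the territory of oxygen and glucose, and neurons of the core die within hours. Surviving astrocytes become reactive, a state marked by intermediate filaments and secreted acute phase proteins, while microglia and blood-borne leukocytes are drawn by chemokines and take up debris. Cytokines signal through Stat3, NF-kappaB and interferon pathways, and injured cells switch on stress genes such as heat shock chaperones.

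All levels below are log2 values, in the order contralateral and ipsilateral, and all differences are ipsilateral minus contralateral on the log2 scale, where 1 unit is a 2-fold difference. The medians of the arrays were 5.53 to 5.55. A level counts as background up to 4.78, below which 95% of 83 probe sets of smell, pheromone and taste receptors read, and 59.2% to 59.8% of the probe sets of each array exceeded it. With 1 array per condition there is no replicate check and no p-value, and so few arrays limit the precision. Between the WT arrays the differences of the receptor probe sets had an SD of 0.211, and those of different probe sets of one gene an SD of 0.188, which is technical scatter and leaves out how mice vary. Of the 83 receptor probe sets, 1 passed 1.5-fold. *P4htm* read 10.03 and 10.02 on the WT arrays against 8.27 and 8.23 on the *P4htm*-/- arrays. Where a level of a single gene did not exceed background, the difference is given as a bound ("at least" or "at most") with the background in its place. Calls, list medians, mean levels and counts above or below 0 use the values as deposited.

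The response was lopsided. Of the 322 higher genes, 107 were past 2-fold and 22 past 4-fold, whereas of the 59 lower genes 2 were past 2-fold and 0 past 4-fold. The higher genes had a median level of 5.90 in contralateral and 6.90 in ipsilateral cortex, and 60 of them were not above background in contralateral cortex. The lower genes had median levels of 6.67 and 6.00, and 7 of them were not above background in ipsilateral cortex. At the limits of the rule, 12 genes stood at 0.59 and 13 just outside at 0.58, and 8 genes stood at -0.59 and 3 just outside at -0.58. In bulk tissue, fewer cells of a type and less RNA per cell cannot be told apart.

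**Figure D1:**
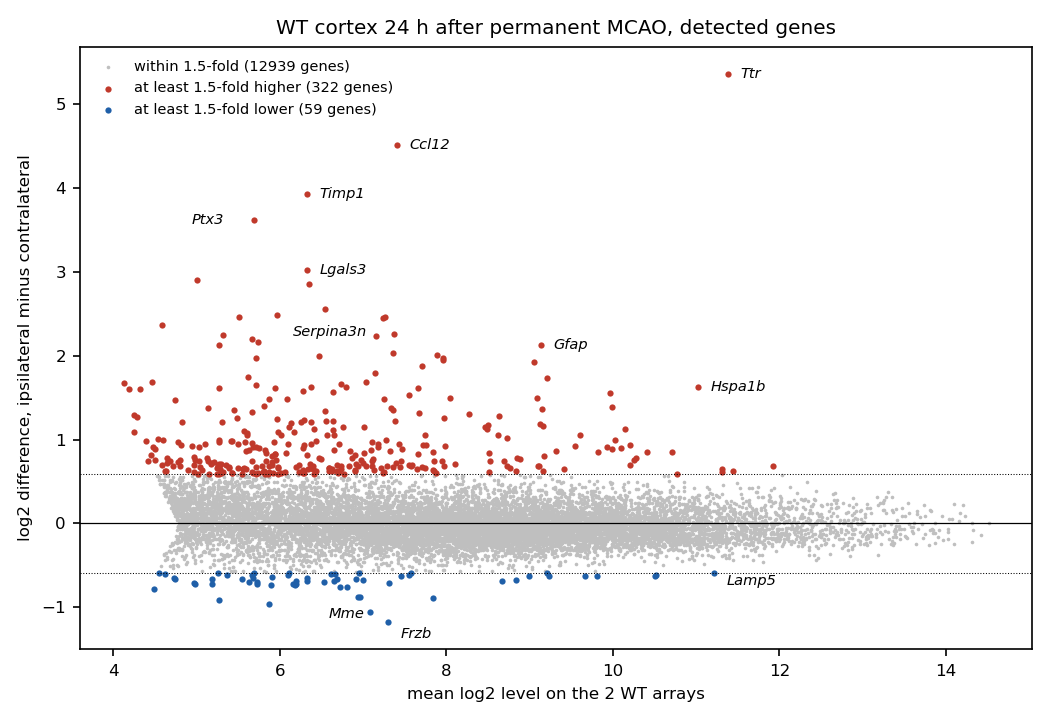
Difference between ipsilateral and contralateral WT cortex (y axis, log2) against the mean level on the 2 WT arrays (x axis, log2) for the 13320 detected genes. Dotted lines mark 1.5-fold, and the 322 higher genes (red) reach 5.35 while the 59 lower genes (blue) end at -1.17.

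The 15 furthest higher genes whose probe sets shared a sign included a carrier of thyroid hormone, chemokines, proteases and their inhibitors, a pentraxin, a galectin and calprotectin. *Ttr*, transthyretin, which the choroid plexus secretes in bulk, read 8.71 and 14.06 in WT against 9.03 and 13.62 in *P4htm*-/- cortex. Its WT difference of 5.35, or 40.8-fold, was the largest of all genes, and its other 3 probe sets gave 5.30, 5.39 and 5.44. *Ccl12*, a chemokine that attracts monocytes, read 5.15 and 9.66 in WT beside 5.23 and 8.99 in *P4htm*-/- cortex. *Timp1*, which inhibits matrix metalloproteinases, read 4.37 and 8.29, so it was higher by at least 3.51. Both ipsilateral arrays stood above both contralateral arrays for each of the 15 genes of this group, against 16.3% of the detected genes. The choice of the genes used the WT arrays, so this ordering is a description.

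*S100a8* and *S100a9*, the subunits of calprotectin carried by neutrophils and monocytes, read 4.72 and 7.20 and 4.28 and 6.74, and were higher by at least 2.42 and at least 1.96. *Mmp3*, stromelysin, read 3.56 and 6.46 and was higher by at least 1.68, and *Arg1*, an arginase of alternatively activated phagocytes, read 3.40 and 5.76 and was higher by at least 0.98. *A2m*, a broad protease inhibitor, read 6.01 and 8.46 in WT against 5.74 and 8.34 in *P4htm*-/- cortex. The WT contralateral level was not above background for 7 of the 15 genes.

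**Figure D2:**
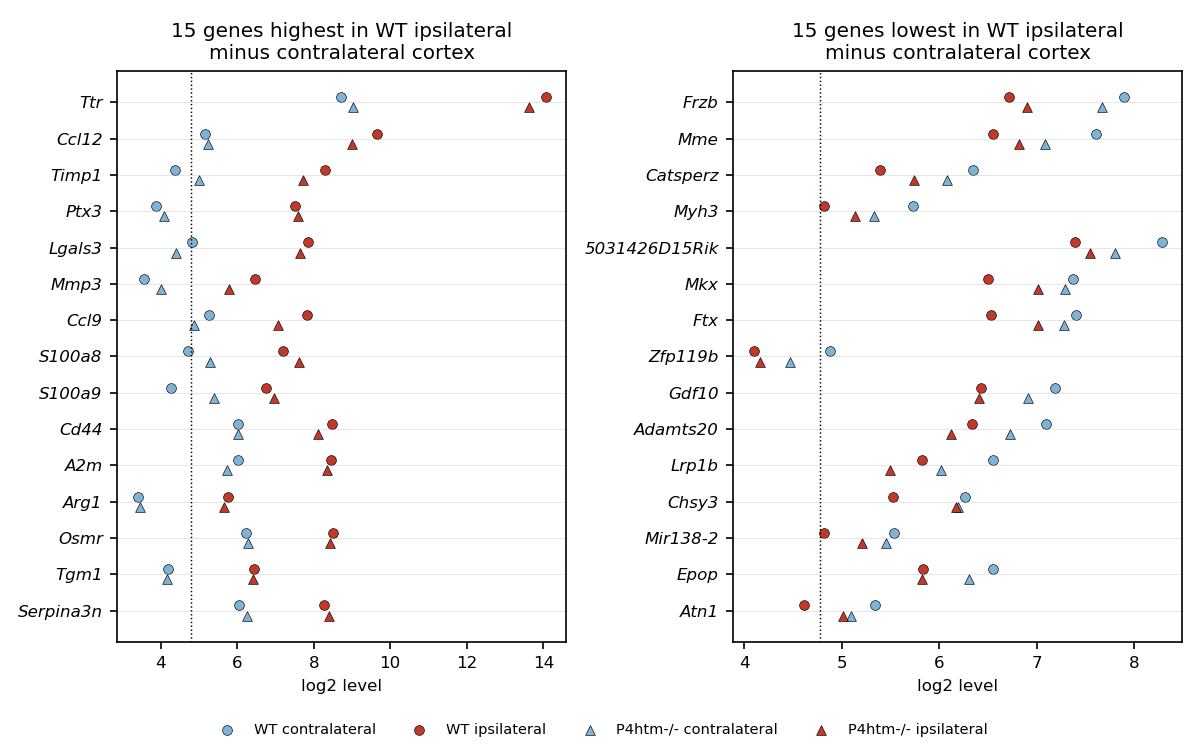
Log2 levels (x axis) of the 15 genes with the highest and the 15 with the lowest WT difference among those whose other detected probe sets shared its sign, on each of the 4 arrays (circles WT, triangles P4htm-/-, blue contralateral, red ipsilateral). The dotted line is the background of 4.78, and the sides are several units apart for the higher genes but mostly less than 1 unit apart for the lower ones.

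Reactive astrocyte genes had the highest median of the 60 lists. All 26 members measured had a difference above 0, with a median of 1.165 in WT and 1.115 in *P4htm*-/- cortex, where the median of all measured genes was 0.00 and 49.3% of them lay above 0. In WT, 19 of the 26 passed 1.5-fold higher and 0 lower. *Gfap* and *Vim*, the intermediate filaments of reactive astrocytes, read 8.07 and 10.20 and 9.19 and 10.74, which gives 2.13 and 1.55. *Serpina3n*, a secreted protease inhibitor, read 6.04 and 8.27 in WT beside 6.25 and 8.39 in *P4htm*-/- cortex. *Cd44*, the hyaluronan receptor, was higher by 2.46 and *Tm4sf1*, a membrane protein, by 1.92, and their other probe sets gave 2.19 and 1.47. *Lcn2*, an iron carrier of innate immunity, read 4.89 and 6.54 in WT. For *Emp1*, a membrane protein, the chosen probe set gave at least 1.98 but the other probe set 0.01, so this gene rests on 1 of 2 probe sets.

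The genes of resting astrocytes went the other way, though by little. Of 27 measured, 22 had a difference below 0, and the median was -0.13 in WT and -0.15 in *P4htm*-/- cortex. In WT 0 passed 1.5-fold in either direction, where 2.86% of all detected genes did. *Slc39a12*, a zinc transporter, read 9.22 and 8.76, and *Acsbg1*, an acyl-CoA synthetase, 9.85 and 9.45. *Ndrg2* was lower by a difference of -0.33 in WT and -0.44 in *P4htm*-/- cortex, and *Apoe*, the lipid carrier, by -0.23 and -0.25. *Aqp4*, the water channel of astrocyte end-feet, was the highest of the list at 0.30, with levels of 10.18 and 10.48. The glutamate transporters had differences of -0.23 for *Slc1a2* and -0.04 for *Slc1a3*, whose other probe sets lay on both sides of 0.

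Genes of resting microglia had differences on both sides of 0, and those of phagocytes were mostly above 0, in 25 of 27. Of 20 microglial genes 3 passed 1.5-fold higher, with a median of 0.11, while of 27 genes of macrophages and phagocytes 11 did, with a median of 0.52 in WT and 0.58 in *P4htm*-/- cortex. *P2ry12*, the purinergic receptor of resting microglia, read 8.20 and 7.82 in WT against 8.13 and 7.74 in *P4htm*-/- cortex. *P2ry6*, a receptor that triggers phagocytosis, read 5.84 and 6.97, and *Tyrobp*, an adaptor of microglial receptors, 9.40 and 10.25. *Aif1*, which encodes Iba-1, read 7.41 and 7.98 and stood just short of 1.5-fold at 0.57. *Cx3cr1*, the fractalkine receptor, had 0.36 in WT and 0.09 in *P4htm*-/- cortex.

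Among the phagocyte genes, *Lgals3*, a galectin of activated phagocytes, read 4.82 and 7.84 in WT. *Lyz2*, lysozyme, read 7.34 and 8.60 in WT beside 7.34 and 8.41 in *P4htm*-/- cortex, and *Cd68*, a lysosomal protein, 6.78 and 7.78 in WT against 6.67 and 7.23 in *P4htm*-/- cortex. *Ms4a6d* was higher by 1.61, *Clec7a*, the beta-glucan receptor, by 1.33, the Fc receptor gene *Fcgr1* by 1.22 and *Plin2*, which coats lipid droplets, by 1.05. The other detected probe set of *Fcgr1* gave 0.41, short of 1.5-fold. Of the 27 genes, both ipsilateral arrays stood above both contralateral arrays for 24, against 16.3% of the detected genes.

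Markers of neutrophils and lymphocytes were mostly not measurable. Of 15 neutrophil genes 7 were detected and 3 passed 1.5-fold, namely *S100a8*, *S100a9* and *Lrg1*, a secreted glycoprotein that read 5.36 and 5.97. *Ngp*, a granule protein that defines neutrophils, was below background on both WT arrays, *Mmp9*, gelatinase B, read 5.14 and 5.39, and *Ltf*, lactoferrin, 5.44 and 5.59. Of 18 lymphocyte genes 5 were detected and 1 passed, *Cd8a* at 5.38 and 5.98, whereas its *P4htm*-/- levels were 5.85 and 5.87. *Cd3g*, which defines T cells, was below background on all 4 arrays.

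**Figure D3:**
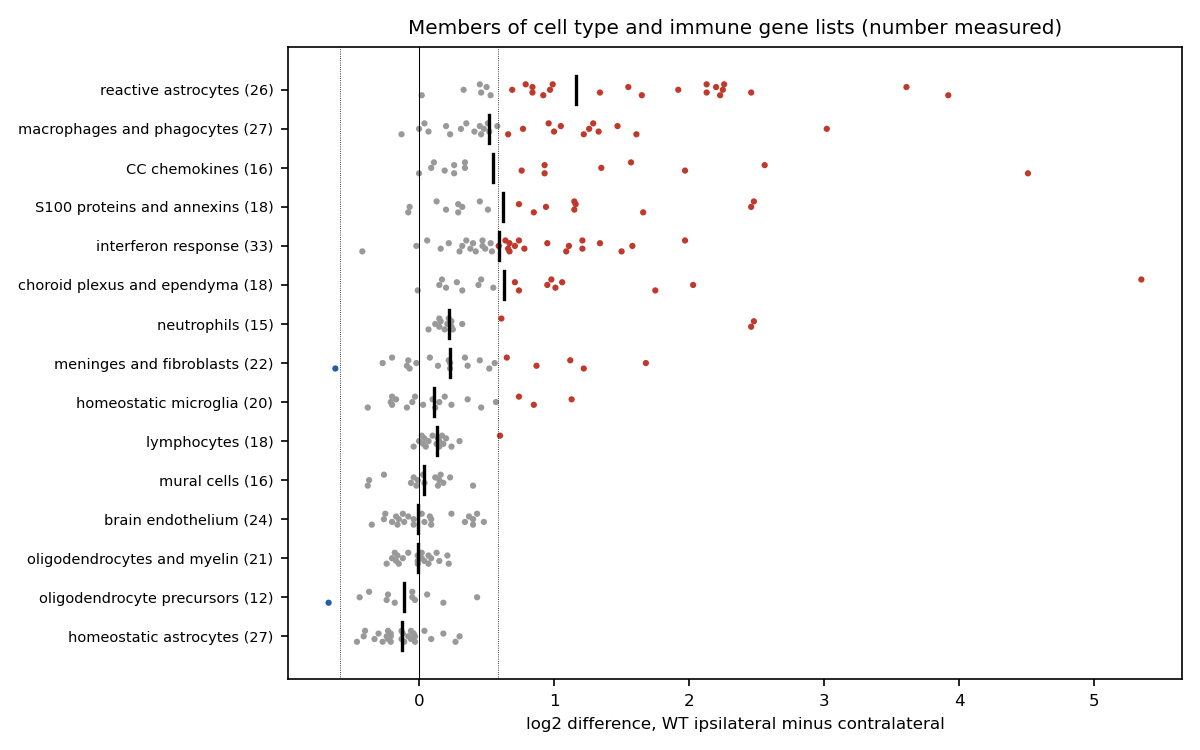
WT difference (x axis, log2) of each measured member of 15 gene lists, with the number measured in brackets. Points past 1.5-fold are red (higher) or blue (lower), the black bar is the list median, and medians run from 1.165 for reactive astrocytes to -0.13 for homeostatic astrocytes.

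The chemokine and cytokine genes divided by family. Of 16 CC chemokines 7 passed 1.5-fold higher and 0 lower, with a median of 0.55 in WT and 0.59 in *P4htm*-/- cortex, and 15 lay above 0. With levels held at background the WT median was 0.34. *Ccl9* read 5.26 and 7.82, *Ccl6* 5.85 and 7.42 and *Ccl4*, a ligand of monocytes and T cells, 5.82 and 6.75. *Ccl2*, monocyte chemoattractant protein 1, read 4.77 and 6.12 in WT beside 4.58 and 5.96 in *P4htm*-/- cortex, which gives at least 1.34 and at least 1.18. *Ccl3* was higher by at least 1.92. Of 14 CXC and CX3C chemokines 3 passed, led by *Cxcl10*, an interferon-inducible ligand of T cells, at 4.20 and 6.33. *Cxcl1*, a chemokine of neutrophils, read 6.63 and 7.20, short of 1.5-fold, but its other probe sets gave 1.26 and 1.91. *Cx3cl1*, the neuronal ligand of microglia, read 11.53 and 11.16 and its other probe sets gave -0.60, -0.19 and -0.12.

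The interleukin-6 family was represented by ligand, receptor and inhibitor. Of its 15 genes 6 passed 1.5-fold higher and 0 lower. The ligand *Il11* was higher by at least 2.04. *Lif*, another ligand, was at least 1.30 higher in WT and at least 0.24 in *P4htm*-/- cortex. *Il6* read 3.29 and 4.96 and exceeded background in the WT ipsilateral cortex alone of the 4, by 0.18. *Osmr*, the oncostatin M receptor, read 6.24 and 8.50, *Stat3*, the transcription factor of the family, 8.46 and 9.24, and *Socs3*, its feedback inhibitor, 6.88 and 8.89. The other probe sets of *Socs3* gave 2.01 and 2.41 and those of *Stat3* 0.33 and 0.69.

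Among interleukin-1, tumor necrosis factor and Toll-like receptor genes, the members past 1.5-fold were receptors, adaptors and regulators. *Il1b* read 4.66 and 5.23, at least 0.45, and *Tnf* was below background on all 4 arrays, as were *Il10* and *Ifng*. *Pycard*, the adaptor of the inflammasome, read 6.79 and 8.32 in WT against 6.79 and 7.76 in *P4htm*-/- cortex. The receptors *Tnfrsf12a* and *Tnfrsf1a* were higher by 1.31 and 1.06. *Cd14*, the co-receptor of bacterial lipopolysaccharide, read 6.85 and 8.46, *Tlr2* 5.29 and 6.03 and *Myd88*, their adaptor, 6.11 and 6.88. Of 17 genes of the tumor necrosis factor and NF-kappaB list 5 passed, of 16 Toll-like receptor genes 3 and of 13 interleukin-1 genes 1.

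Of 33 interferon response genes 17 passed 1.5-fold higher and 0 lower in WT, and 17 and 0 in *P4htm*-/- cortex, with a median of 0.59 in both. *Ifitm1* and *Ifitm3*, membrane proteins that restrict viral entry, read 6.97 and 8.94 and 8.34 and 9.84. *Gbp2* and *Gbp3*, guanylate-binding proteins, were higher by 1.34 and 1.11, *Usp18*, a protease that limits interferon signaling, by at least 1.13, and *Ifit1* by 1.09. Of 17 genes of antigen presentation 5 passed, among them *Psmb8*, an immunoproteasome subunit, at 6.73 and 7.64, and *Cd74*, the invariant chain, at 6.06 and 6.74. *Cd1d1*, a lipid-presenting molecule, read 4.77 and 5.77 in WT but 5.61 and 5.13 in *P4htm*-/- cortex.

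The promoters of these genes were searched on both strands for the interferon-stimulated response element, read as GAAA, any 2 bases and GAAA, in a window from 250 bases before to 50 bases after the annotated start in RefSeq (GRCm38.p6). Of the 13 higher interferon genes with such a window 10 held it, and of all 26 measured interferon genes with a window 15 did. The share was 8.40% of the 238 higher genes with a window, 0 of 43 lower genes, 2.80% of 10700 detected genes and 3.49% of all 27025 promoters. The 4 stretches of 100 bases below are shown because they hold the element in the 4 furthest higher of these genes with a match before the start, with all matches in capitals. They lie 49 bases (*Gbp2*, chr3:142620559-142620658, plus strand), 35 bases (*Gbp3*, chr3:142559944-142560043, plus strand), 94 bases (*Ifit1*, chr19:34640740-34640839, plus strand) and 36 bases (*Ifitm2*, chr7:140955962-140956061, minus strand) before the start, counted from the end of the first match. In *Ifitm3*, which was further higher, the matches lie after the start.
Gbp2: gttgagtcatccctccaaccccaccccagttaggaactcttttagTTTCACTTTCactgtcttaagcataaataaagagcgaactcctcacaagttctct
Gbp3: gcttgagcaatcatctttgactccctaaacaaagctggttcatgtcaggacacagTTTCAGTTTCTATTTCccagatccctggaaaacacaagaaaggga
Ifit1: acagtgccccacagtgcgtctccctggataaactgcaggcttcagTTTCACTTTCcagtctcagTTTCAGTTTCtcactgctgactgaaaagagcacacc
Ifitm2: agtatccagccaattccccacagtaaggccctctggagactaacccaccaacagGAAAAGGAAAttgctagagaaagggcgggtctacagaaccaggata

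The same windows were searched for further motifs, among them an AP-1 site, TGANTCA, and a STAT palindrome, TTCNNNGAA. A match to one motif can share bases with a match to another. The AP-1 letters were in 15.1% of the 238 higher genes, in 2.33% of the lower ones (1 of 43), in 4.90% of detected genes and in 7.93% of all promoters. The STAT letters were in 12.2%, 4.65%, 6.61% and 8.47% in the same order, and the 2 lower genes that held them were *Frzb* and *Mme*. A TATA box, TATAAA, was in 17.2%, 6.98%, then 7.5% and 14.2%. The cyclic AMP response element, TGACGTCA, was in 1.26% of higher, 0 of 43 lower and 3.15% of detected genes, and the hypoxia response core, ACGTG, in 16.8%, 18.6% and 25.3%. The GC content of the windows differed between these groups too, with medians of 55.3% for higher, 57.3% for lower and 61.0% for detected genes, and its part in the shares was not tested. A match is a run of letters and not a measured binding site. The stretches shown hold the AP-1 letters of *Mmp3* (chr9:7445722-7445821, plus strand), *Ccl9* (chr11:83578637-83578736, minus strand) and *Cxcl10* (chr5:92348911-92349010, minus strand) and the STAT letters of *Tgm1* (chr14:55713612-55713711, minus strand) and *Socs3* (chr11:117969467-117969566, minus strand), again in capitals, as examples from higher genes. Of these, *Tgm1*, a transglutaminase, read 4.19 and 6.44 in WT, at least 1.66.
Mmp3: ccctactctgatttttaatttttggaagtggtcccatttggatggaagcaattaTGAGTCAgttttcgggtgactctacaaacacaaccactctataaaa
Ccl9: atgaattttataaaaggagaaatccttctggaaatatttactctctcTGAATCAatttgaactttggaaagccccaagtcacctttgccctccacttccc
Cxcl10: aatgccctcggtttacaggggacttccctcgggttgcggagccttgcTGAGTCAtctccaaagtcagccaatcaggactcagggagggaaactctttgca
Tgm1: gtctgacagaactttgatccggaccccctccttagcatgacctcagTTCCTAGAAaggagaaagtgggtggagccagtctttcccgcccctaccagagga
Socs3: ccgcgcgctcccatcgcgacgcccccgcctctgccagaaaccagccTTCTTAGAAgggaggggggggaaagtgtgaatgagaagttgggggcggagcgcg

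Complement, coagulation and calcium-binding proteins had members past 1.5-fold as well. Of 15 complement genes 2 passed 1.5-fold, the anaphylatoxin receptor gene *C3ar1* at 5.11 and 6.51 and *C1ra* at 4.99 and 5.59. The 3 chains of C1q differed by 0.47 (*C1qa*), 0.26 (*C1qb*) and 0.43 (*C1qc*) in WT and by 0.49, 0.44 and 0.43 in *P4htm*-/- cortex. Of 18 S100 proteins and annexins 9 passed, with a median of 0.625 in WT and 0.335 in *P4htm*-/- cortex. *S100a4*, a calcium-binding protein of motile cells, read 5.90 and 7.56 in WT beside 5.80 and 6.58 in *P4htm*-/- cortex, *S100a6* 8.58 and 9.74 in WT, and *Anxa1*, an anti-inflammatory annexin, 6.43 and 7.58 in WT against 6.45 and 7.09 in *P4htm*-/- cortex. Of 20 coagulation and fibrinolysis genes 6 passed, among them *Procr*, the protein C receptor of endothelium, at 5.10 and 6.07, and *F13a1*, which cross-links fibrin, at 6.59 and 7.22.

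Proteases and matrix genes differed in single members. Of 25 metalloproteinases and inhibitors 6 passed 1.5-fold higher with a list median of 0.10, or 0.01 with levels held at background. *Adamts1*, a secreted aggrecanase, read 7.01 and 8.33 in WT beside 6.82 and 8.29 in *P4htm*-/- cortex, and *Mmp12*, the elastase of macrophages, 3.62 and 5.30 in WT, at least 0.52. Of 28 matrix genes 3 passed, with *Tgfbi*, a matrix protein induced by transforming growth factor beta, at 6.25 and 8.04 and its other probe sets at 1.12, 1.45 and 1.79. *Tnc*, tenascin C, read 5.26 and 6.17.

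Genes of stress responses showed a few large differences in lists with small medians above 0. The WT medians were 0.05 (heat shock), 0.085 (unfolded protein), 0.125 (p53 and cell death) and 0.15 (oxidative stress). In this order 15 of 23, 19 of 26, 21 of 28 and 19 of 25 genes lay above 0, against 49.3% of all measured genes. Of 23 heat shock chaperones 6 passed 1.5-fold higher and the median was 0.05. *Hspa1a* and *Hspa1b*, the inducible HSP70 genes, read 8.34 and 10.07 and 10.21 and 11.84 in WT. In *P4htm*-/- cortex *Hspa1a* read 9.81 and 10.79, and *Hspa1b* ended at 12.70 after a difference of 0.70. The contralateral *P4htm*-/- level of *Hspa1b* was thus already above the ipsilateral WT level of 11.84. Between the contralateral arrays *Hspa1b* differed by more than its WT difference, and *Hspa1a* by less than its own. What set the contralateral arrays apart was not tested. *Hspa1a* and *Hspa1b* are near-identical genes whose probes cannot be told apart with certainty. *Hspb1*, HSP27, read 9.53 and 10.52. *Hmox1*, heme oxygenase, read 5.48 and 7.47 and was the highest of 25 genes of oxidative stress, metallothioneins and iron, of which 5 passed. Of 26 genes of the unfolded protein response 1 passed, *Nupr1* at 7.92 and 9.05, and of 28 p53 targets and cell death genes 1, *Cdkn1a*, the cell cycle inhibitor p21, at 8.77 and 9.57, and both shares are near the 2.42% of all detected genes that were higher.

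Of 36 immediate early genes 5 passed 1.5-fold higher and 1 lower, and 20 lay below 0. *Atf3*, a stress-induced transcription factor, read 5.13 and 6.61, *Maff* 5.54 and 6.69, *Myc* 6.26 and 6.92 and *Nptx2*, a neuronal pentraxin, 8.44 and 9.10, while *Fosl1* was higher by at least 0.65. *Egr2* was the lower one, at 6.88 and 6.18 in WT against 6.96 and 6.97 in *P4htm*-/- cortex. Its other probe set gave -0.61, which made it the only one of the 59 lower genes whose other detected probe sets all passed 1.5-fold.

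Among targets of hypoxia-inducible factor and glycolytic genes few differences were large. Of 29 measured, 2 passed 1.5-fold, *Adm*, the vasodilator adrenomedullin, at 5.02 and 6.12, and *Hk2*, hexokinase 2, at 6.04 and 6.70. The *P4htm*-/- levels of *Adm* were 5.63 and 5.92, and its other probe set gave 0.48 in WT, short of 1.5-fold. The median was -0.01 in WT and 0.08 in *P4htm*-/- cortex. *Vegfa* differed by 0.13, the glucose transporters *Slc2a1* and *Slc2a3* by 0.04 and -0.04, *Bnip3* by 0.27, *Ldha*, lactate dehydrogenase, by 0.30, *Hif1a* by -0.01 and *Epas1* by -0.17. All of these lay within 1.5-fold. Of 36 growth factors and their receptors 2 were higher, *Angpt2*, which loosens vessels, at 5.83 and 6.73 and *Hbegf* at 8.76 and 9.45, and 1 was lower, *Gdf10*.

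Members of the vessel, tight junction and myelin lists stayed within 1.5-fold, though other genes of vessels, such as *Procr* and *Angpt2*, did not. No member of the lists for brain endothelium (24 measured), mural cells (16), tight junctions (18) or oligodendrocytes and myelin (21) passed 1.5-fold in either direction in WT. Of all detected genes 2.86% passed in either direction, so 0 in lists of this size is near that share. The medians of these lists were -0.01, 0.035, -0.03 and -0.01, or 0.01, 0.00, -0.005 and -0.01 with levels held at background. *Cldn5*, the main claudin of the barrier, read 9.51 and 9.75, *Ocln*, occludin, 7.31 and 7.06 and *Tjp1* 10.01 and 10.06. Of 18 leukocyte adhesion genes 4 passed 1.5-fold higher, where 2.42% of all detected genes did. Of the 18, 12 lay above 0 and 6 below, with a median of 0.195. Among adhesion molecules of activated endothelium, *Selp*, P-selectin, was higher by at least 0.70, and *Icam1* read 4.94 and 5.65. *Mbp*, the myelin basic protein gene, read 14.37 and 14.29. Of 12 oligodendrocyte precursor genes 1 passed lower, *Tnr*, tenascin R, at 9.17 and 8.50, while *Pdgfra*, which defines these cells, read 9.65 and 9.60.

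Markers of tissue next to the cortex also differed. Of 18 choroid plexus and ependyma genes 7 passed 1.5-fold higher, the median was 0.63 in WT (0.27 with levels held at background) and 0.45 in *P4htm*-/- cortex, and the mean level of the list was 5.17 and 6.12 in WT beside 5.17 and 5.80 in *P4htm*-/- cortex. *Ecrg4* read 6.35 and 8.38 in WT against 6.48 and 7.22 in *P4htm*-/- cortex. *Sostdc1* read 5.07 and 6.13 and *Kl*, klotho, 4.91 and 5.62, whereas *Aqp1* and *Steap1* exceeded background in the WT ipsilateral cortex alone, by 0.10 and 0.26. *Kcnj13* and *Clic6* differed by 0.32 and 0.44. Of 22 genes of meninges and fibroblasts 5 were higher and 1 lower, *Fmod*, with *Col3a1*, type III collagen, at 6.20 and 7.88 and *Lum*, lumican, at 6.22 and 7.09, and the mean level of the list was 7.36 and 7.70 in WT. Of 10 blood cell genes 5 were detected and 2 passed. *Hbb-b2* read 5.06 and 6.14 in WT beside 6.04 and 6.26 in *P4htm*-/- cortex. *Alas2* read 3.70 and 4.79 in WT, higher by at least 0.01, and was below background on both *P4htm*-/- arrays. *Hba-a1*, a globin that defines red cells, was below background on all 4 arrays. The part of such tissue in the higher genes, *Ttr* included, was not tested.

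Of the 322 higher genes 173 were in none of the 60 lists, and the following were chosen from them after their values were seen. *Tubb6*, a beta-tubulin, read 4.93 and 7.78 in WT beside 5.31 and 7.30 in *P4htm*-/- cortex, but its other detected probe set gave -0.08. *Prg4*, lubricin, read 6.99 and 8.94, *Cebpd*, a transcription factor of the acute phase response, 7.29 and 8.79, and *Ly86*, a partner of a Toll-like receptor homolog, 9.29 and 10.68. The other detected probe set of *Cebpd* gave 0.47, short of 1.5-fold. *Slc14a1*, a urea transporter of astrocytes, read 6.68 and 8.03 in WT against 6.42 and 7.68 in *P4htm*-/- cortex, and *Pdpn*, podoplanin, 8.54 and 9.72 in WT beside 8.62 and 9.27 in *P4htm*-/- cortex. The higher genes had a median span of 12.3 kb in RefSeq and the lower genes one of 24.1 kb, beside 23.6 kb for the detected genes.

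The 59 lower genes were mostly outside the lists. Of them 11 (18.6%) were in at least 1 list, of the higher genes 149 (46.3%) and of the detected genes 9.02%. Of the 59, 11 were not protein coding (18.6%), 8 of them long noncoding RNAs, against 10 of 322 higher genes (3.11%) and 3.97% of detected genes. The *P4htm*-/- difference was below 0 for 51 of the 59, where 54.7% of the genes detected there were, and above 0 for 7, with a median of -0.24 where that of WT was -0.66, and 3 passed 1.5-fold lower there, as did 0.165% of the genes detected in *P4htm*-/- cortex. Both ipsilateral arrays stood below both contralateral arrays for 50 of the 59, against 23.5% of detected genes. For the 322 higher genes, the *P4htm*-/- difference was above 0 for 305, where 41.7% of the genes detected there were, with a median of 0.60, and 159 passed 1.5-fold higher, as did 1.53% of the genes detected there. Both ipsilateral arrays stood above both contralateral arrays for 303 of them, against 16.3% of detected genes. The choice of the genes used the WT arrays of these orderings, so they are descriptions.

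Other probe sets of the same genes gave a further reading. Of the 91 higher genes with another detected probe set, all others had the same sign for 81 and all passed 1.5-fold for 48, and the median of the others was 0.61. Of the 12 lower genes with another detected probe set, the counts were 8 and 1, and the median was -0.19. *Grik3*, *Miat* and *Npnt* were examples, the last 2 chosen after their values were seen, with -0.68, -0.62 and -0.59 on the chosen and -0.14, 0.04 and -0.48 with -0.21 on the other probe sets.

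*Frzb*, a secreted antagonist of Wnt ligands, was the lowest gene, at 7.89 and 6.72 in WT against 7.67 and 6.90 in *P4htm*-/- cortex. The WT difference of -1.17, 2.25-fold, and the *P4htm*-/- difference of -0.77 both passed 1.5-fold. *Mme*, neprilysin, a peptidase that degrades neuropeptides and amyloid beta, read 7.61 and 6.55 in WT beside 7.09 and 6.82 in *P4htm*-/- cortex. *Adamts20*, a secreted metalloproteinase, read 7.10 and 6.34 in WT against 6.73 and 6.12 in *P4htm*-/- cortex, and *Heph*, a ferroxidase of iron export, 6.07 and 5.37 in WT beside 5.83 and 5.17 in *P4htm*-/- cortex. With *Frzb* these were the 3 genes past 1.5-fold lower in both genotypes, which is why *Heph* is named, after its values were seen.

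*Gdf10*, a ligand of the bone morphogenetic protein family, read 7.19 and 6.43 in WT against 6.91 and 6.41 in *P4htm*-/- cortex. *Mkx*, a homeobox factor of tendon, read 7.37 and 6.50, *Chsy3*, a chondroitin sulfate synthase, 6.26 and 5.53, and *Lrp1b*, an endocytic receptor, 6.55 and 5.82. *Myh3* and *Catsperz*, genes of embryonic muscle and sperm, read 5.73 and 4.82 and 6.35 and 5.39. Others in this group were the noncoding *Ftx* at 7.40 and 6.53, *5031426D15Rik* at 8.28 and 7.39, *Epop* at 6.55 and 5.83, and *Zfp119b* and *Atn1*, whose ipsilateral levels were not above background, so their differences were at most -0.10 and -0.56. For all 15, the WT contralateral array was the highest of the 4.

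**Figure D4:**
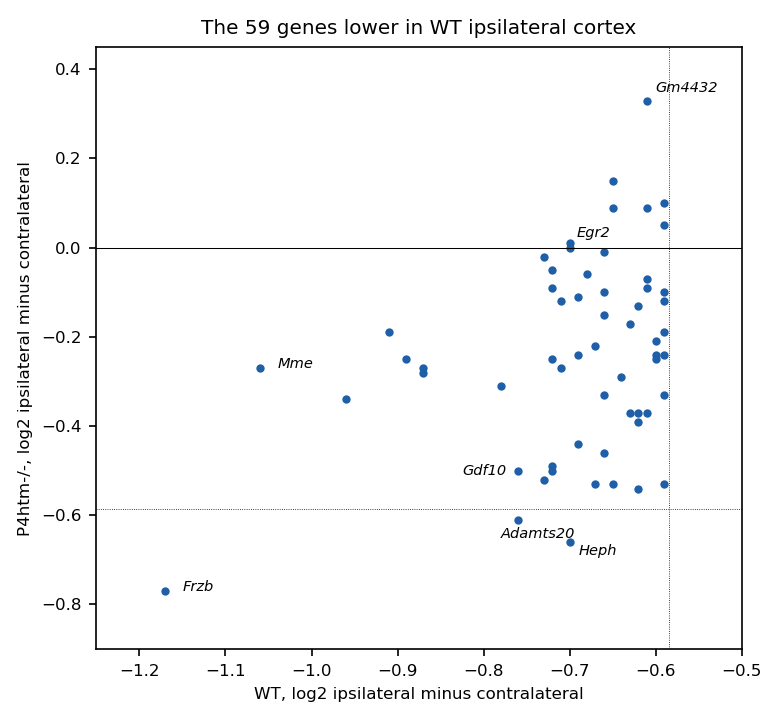
Ipsilateral minus contralateral difference (log2) in P4htm-/- cortex (y axis) against WT cortex (x axis) for the 59 genes that were lower in WT. Dotted lines mark 1.5-fold lower, and Frzb, Adamts20 and Heph lie past both lines while 7 genes lie above 0 in P4htm-/- cortex.

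The probe set named for *Mir138-2* read 5.54 and 4.82 in WT beside 5.46 and 5.21 in *P4htm*-/- cortex. An expression array of this kind reads longer transcripts of the locus and not mature miR-138, a microRNA of the brain. The mature product of the 5′ arm, from RefSeq (chr8:94324312-94324334, plus strand), is shown with its seed, bases 2 to 8, in capitals.
mmu-miR-138-5p: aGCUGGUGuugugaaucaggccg

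Genes of neurons had small differences that were mostly below 0. The 11 neuronal lists hold 272 measured genes, of which 228 (83.8%) lay below 0 in WT, 39 above 0 and 5 at 0. Of all measured genes 48.5% lay below 0 in WT and of detected genes 52.9%, and 267 of the 272 were detected. In the quartile of detected genes with the longest span (from 59.3 kb), which held 146 of the 272, the share was 70.0%. The 272 genes had a median of -0.16 and a mean level of 9.66 and 9.50. Of the 272, 6 passed 1.5-fold lower and 1 higher, where 0.443% and 2.42% of all detected genes did. In *P4htm*-/- cortex 148 of the 272 (54.4%) lay below 0, with a median of -0.02 and mean levels of 9.64 and 9.62. Of all measured genes 51.7% lay below 0 there, and of the genes detected there 54.7%. Both ipsilateral arrays stood below both contralateral arrays for 107 of the 272, against 23.5% of detected genes, and above both for 20, against 16.3%. Whether the genotypes differ was not tested and cannot be with 1 array each.

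Postsynaptic proteins were the most uniform list, with all 24 measured genes below 0, a median of -0.20 and a range of -0.41 to -0.01. *Kalrn*, a guanine nucleotide exchange factor of dendritic spines, read 12.67 and 12.26 in WT against 12.71 and 12.66 in *P4htm*-/- cortex, and *Camkk2*, a calcium-dependent kinase, 11.76 and 11.37. Of 26 presynaptic proteins 24 lay below 0, with *Unc13a*, a vesicle priming factor, at 9.05 and 8.61 and *Stx1a*, a syntaxin of the fusion machinery, at 12.61 and 12.23. The *P4htm*-/- medians of these lists were -0.035 and 0.02. *Syp*, synaptophysin, read 10.72 and 10.39 in WT beside 10.57 and 10.61 in *P4htm*-/- cortex.

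The receptor and channel lists held most of the neuronal genes past 1.5-fold. Of 21 glutamate receptors 17 lay below 0 and 2 passed lower, the kainate receptor genes *Grik3*, at 9.01 and 8.33 in WT against 8.80 and 8.74 in *P4htm*-/- cortex, and *Grik1*, at 6.91 and 6.31. *Grik2*, of the same family, read 7.02 and 6.56. *Gabrd*, the delta subunit of extrasynaptic GABA receptors, read 9.31 and 8.68 in WT beside 9.15 and 8.78 in *P4htm*-/- cortex, and was the one that passed among 12 GABA receptor genes, of which 10 lay below 0. *Kcnip2*, an accessory subunit of A-type potassium channels, read 9.50 and 8.91, and *Scn4b*, a beta subunit of sodium channels, 10.82 and 10.21 in WT against 10.52 and 10.45 in *P4htm*-/- cortex. Of 40 potassium and HCN channel genes 33 lay below 0 and of 24 sodium and calcium channel genes 20. In the other direction, *Grm5*, a metabotropic glutamate receptor, read 11.08 and 11.41 and *Gabrg3* 6.75 and 7.28, within 1.5-fold.

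By cell class, 22 of 24 genes of excitatory cortical neurons lay below 0 (median -0.185), 16 of 24 of interneurons and neuropeptides (-0.095) and 16 of 19 of striatal projection neurons (-0.19). All 24 excitatory genes were detected, but so were all 19 striatal genes and 14 of 17 hippocampal and thalamic markers, so detection does not single out cortex. *Lamp5*, a gene of upper layers, read 11.51 and 10.92 in WT beside 11.46 and 11.13 in *P4htm*-/- cortex and passed 1.5-fold, while *Tbr1*, a transcription factor of deep layers, read 9.30 and 8.76 in WT against 9.13 and 9.26 in *P4htm*-/- cortex. *Slc17a7*, the vesicular glutamate transporter, read 8.65 and 8.61, and *Gad1* and *Gad2*, the GABA-synthesizing enzymes, differed by -0.07 and 0.05. *Crhbp*, which binds corticotropin-releasing hormone, was the 1 neuronal gene past 1.5-fold higher, at 8.85 and 9.48 in WT beside 9.05 and 9.20 in *P4htm*-/- cortex. The striatal genes *Drd1*, *Drd2* and *Ppp1r1b* were detected at 10.10, 7.95 and 8.92 in WT contralateral cortex and differed by -0.19, -0.34 and -0.24. Of 43 genes of axon guidance and neuronal adhesion 35 lay below 0, with *Epha4*, an ephrin receptor, at 10.60 and 10.15 and its 4 other probe sets between -0.54 and -0.32.

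**Figure D5:**
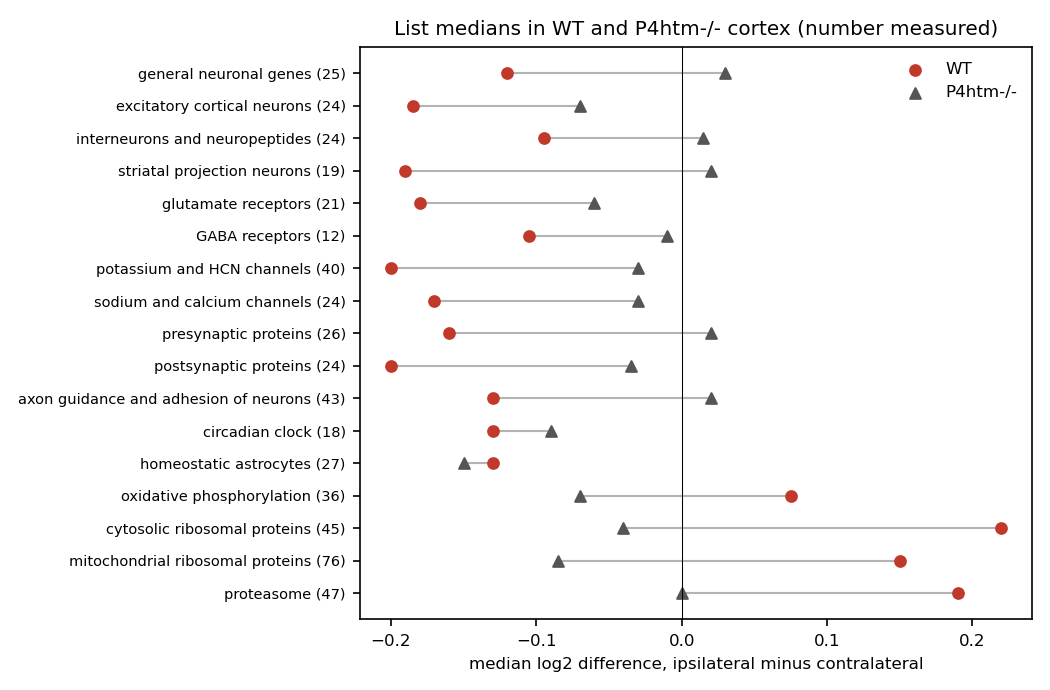
Median ipsilateral minus contralateral difference (x axis, log2) of 17 gene lists in WT (circles) and P4htm-/- cortex (triangles), with the number of genes measured in brackets. The 11 neuronal lists lie between -0.20 and -0.095 in WT and between -0.07 and 0.03 in P4htm-/- cortex, and the lists of ribosomes and proteasome lie above 0 in WT.

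Genes of protein synthesis and degradation went the other way in WT. Of 45 cytosolic ribosomal protein genes 41 lay above 0 with a median of 0.22, of 76 mitochondrial ribosomal protein genes 67 with a median of 0.15 and of 47 proteasome genes 41 with a median of 0.19. In *P4htm*-/- cortex the medians were -0.04, -0.085 and 0.00. Each list had 1 gene past 1.5-fold, a share below the 2.42% of all detected genes that were higher, namely *Rps27l*, a p53-inducible ribosomal protein, at 9.47 and 10.38, *Mrps6* at 9.98 and 10.83, and *Psmb8*. *Ndufs4* of respiratory complex I read 10.23 and 10.59 in WT against 10.27 and 10.13 in *P4htm*-/- cortex, and 28 of 36 genes of oxidative phosphorylation lay above 0 in WT.

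The span of the gene moved with these small differences. Among detected genes of WT cortex, the quartile with the shortest span in RefSeq (up to 9.79 kb) had a median difference of 0.06 and 4.13% higher genes, and the quartile with the longest span (from 59.3 kb) had a median of -0.10 and 0.875% higher genes. The middle quartiles had medians of 0.01 and -0.04. In *P4htm*-/- cortex the medians were -0.03, -0.02, -0.01 and -0.01 from the shortest to the longest. The 272 neuronal genes had a median span of 68.3 kb and the cytosolic ribosomal genes one of 3.35 kb. Within the same quartiles, from the shortest to the longest, the neuronal genes had medians of -0.125, -0.14, -0.14 and -0.175 in WT. Their medians in *P4htm*-/- cortex were -0.010, -0.050, -0.035 and -0.010. RNA quality, as the signal at the 3′ end minus that at the 5′ end, was 0.94 and 1.10 for *Gapdh* and 1.67 and 1.73 for *Actb* on the WT arrays, and 1.33 and 1.16 and 1.97 and 1.78 on the *P4htm*-/- arrays. The WT contralateral array thus had the lowest of the 4 values for both genes. The part of span and RNA quality in the differences was not tested.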

How the data were processed

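Each of the 4 conditions was measured once, on an Affymetrix Mouse Genome array that received the pooled total RNA of 4 mice, so no condition has a replicate. The values deposited by the authors are on the log2 scale, 1 for each probe set, and come from RMA, which subtracts background, gives all arrays the same distribution and would remove a difference shared by all genes. Its version and the base of the logarithm are, in the sources used here, not given, and base 2 was taken from the range of 2.51 to 14.9.

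Of 45101 probe sets, 34958 name 1 gene, 932 several and 9211 none in the annotation table used, and 34754 were matched by Entrez ID to RefSeq (GRCm38.p6), which gave names, spans and promoters. The files name no genome build. Genes without a single-gene probe set, and some withheld ones, were not analysed here.

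Genes are called higher or lower past 1.5-fold (0.585 on the log2 scale) when above the background of 4.78 on at least 1 WT array. No test was made. Members and lists were chosen with earlier results of these data known. Named genes are *P4htm*, the 15 highest and 15 lowest detected genes with their other detected probe sets on the same side of 0, and in each list up to 8 members past 1.5-fold, up to 4 further detected members and, for cell types, the 3 first-listed markers. Genes named in the study's text and genes past 1.5-fold in opposite directions in the genotypes were added. Alternatives were other probe set rules, detection filters, a 2-fold rule, array medians and cyclic loess. The counting steps were tested on simulated data. The tools were R 4.3.3, limma 3.58.1, Python 3.11.15, pandas 2.3.3, numpy 2.4.6 and matplotlib 3.10.9.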

Additional observations from a re-analysis of the deposited data

Results flagged for a closer look

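*1110017D15Rik* was the 1 gene past 1.5-fold in opposite directions in the genotypes. It read 5.50 and 6.12 on the contralateral and ipsilateral WT arrays and 5.90 and 5.26 on the *P4htm*-/- arrays, which gives 0.62 in WT and -0.64 in *P4htm*-/- cortex. The difference between the genotypes was not tested, since each value is 1 array.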

How the results depend on the processing

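The counts of higher and lower genes are those of 2 pooled arrays and have no error from replicates. With the mean of all single-gene probe sets of a gene 35 genes were lower, 33 of them among the 59, and 242 higher, 234 of them among the 322. With background at the 99th percentile of the receptor probe sets (6.59), 187 genes were higher and 31 lower, and with a 2-fold rule 107 and 2. Under the other alternatives the higher genes numbered 262 to 380 and the lower genes 46 to 73. The median of the blood cell list moved from 0.26 to 0.48 with detected members only and to 0.00 with levels held at background. The lists whose median changed sign had medians between -0.095 and -0.01, 4 with the mean of probe sets, 2 without probe sets shared between transcripts, 1 with detected members only and 4 with cyclic loess, and the interneuron list went from -0.095 to 0.025 with the mean of probe sets. Cyclic loess shifted the median of all genes by 0.018 and array medians by -0.01. No paired analysis was possible because each condition is 1 pooled array and the arrays carry no replicate numbers. Low signal limits genes near background, for which differences are bounds.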

Other observations

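Several gene groups that belong to no comparison above had members past 1.5-fold in WT cortex. *Ch25h*, which makes 25-hydroxycholesterol, read 6.18 and 7.33 in WT against 6.40 and 7.58 in *P4htm*-/- cortex and was the 1 of 12 genes of cholesterol export and oxysterols past 1.5-fold. No gene of cholesterol and fatty acid synthesis passed, with 21 measured between -0.24 and 0.20. Of all detected genes 2.86% passed in either direction. *Odc1*, the first enzyme of polyamine synthesis, read 9.86 and 10.56, and *Ido1*, which degrades tryptophan, 7.08 and 6.63. The other probe sets of *Odc1* gave 0.47 and 0.62. Of 26 proliferation genes 3 passed higher, the replication genes *Mcm3* at 5.19 and 6.15 and *Mcm6* at 7.03 and 7.75, and *Top2a*, higher by at least 0.22. Of the 26, 21 lay above 0, as did 49.3% of all measured genes.

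Of 18 circadian clock genes 16 lay below 0 in WT and 14 in *P4htm*-/- cortex, with medians of -0.13 and -0.09, and 0 passed 1.5-fold in WT. Of all measured genes 48.5% and 51.7% lay below 0 in WT and *P4htm*-/- cortex, and of detected genes 52.9% and 54.7%. *Npas2* read 8.51 and 8.06 and *Per2* 7.94 and 7.61. The prostaglandin genes stayed within 1.5-fold, with *Ptgs2*, cyclooxygenase 2, at 7.97 and 8.38. Of 21 genes of the JNK and p38 kinases 0 passed 1.5-fold, with *Mapk12* highest at 0.55 and *Mapk10* lowest at -0.38. Of all detected genes 2.86% passed in either direction, so 0 in the clock, prostaglandin and kinase lists is near that share. Of 11 neuropeptides of the hypothalamus 9 were detected and 1 passed, *Gal*, galanin, at 6.01 and 6.72 in WT and, on the *P4htm*-/- arrays, 6.81 and 6.57, with *Oxt* at 7.86 and 8.30 and *Avp* at 7.92 and 7.59 in WT beside 9.34 and 8.03 in *P4htm*-/- cortex.

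Probe sets without a gene name in the annotation held many of the lower values. Of 3222 such probe sets detected on a WT array, 144 (4.47%) were at least 1.5-fold lower and 50 (1.55%) higher, whereas of 23643 detected single-gene probe sets 189 (0.799%) were lower and 503 (2.13%) higher. Of the 144, 117 were below 0 in *P4htm*-/- cortex, with a median of -0.20, and 5 passed 1.5-fold lower there. The shares over all unnamed probe sets were not computed for *P4htm*-/- cortex, so these counts have no base for comparison. Transcripts of the unnamed probe sets were not counted among the 59 lower genes.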
